A study of Mus musculus with 16 samples.

Results

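Brain endothelial cells form the blood-brain barrier and take up nutrients through carriers, and the 10 genes described here encode transporters and carriers of these cells. They are Slc2a1, Mfsd2a, Abcb1a, Abcg2, Slco1a4, Slco1c1, Slc7a5, Slc16a1, Tfrc and Bsg, taken by symbol from a table of 55487 genes in which each of them was found. Gene expression was measured by sequencing poly(A) RNA of whole brain samples, from 16 female mice on a C57BL/6J background, with 4 mice in each of 4 groups. CETPtg mice were heterozygous for a human CETP transgene under its own promoter, which gives mice a plasma lipid transfer protein that they otherwise lack. APPtg/CETPtg mice also carried human APP with mutations of familial Alzheimer's disease, expressed in neurons under the Thy1 promoter. From an age of 11 weeks, mice of all 4 groups were fed a diet with 1% cholesterol, and for 11 weeks they received daily intraperitoneal injections of evacetrapib, an inhibitor of CETP, at 30 mg/kg or of its vehicle. The vehicle-treated mice therefore carried the CETP transgene and ate the same diet, and mice without CETP were not analysed here.

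The tight junctions of the brain endothelium close the path between cells, so that glucose, amino acids, lactate, iron, thyroid hormone and some lipids cross it by way of carrier proteins, while pumps of the ATP-binding cassette family return drugs and other lipophilic compounds to the blood. Several of these genes are switched on in brain vessels by Wnt signals during development, and most of them are used by other brain cells too. GLUT1 is also found in astrocytes, the transferrin receptor in neurons and basigin in nearly every cell. In bulk tissue, fewer cells of a type and less RNA per cell cannot be told apart.

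Promoter sequences are shown for 4 members on which the results turn. These were the pair with the highest Pearson correlation over the mice and a carrier higher with evacetrapib in both genotypes. The member with the clearest difference between genotypes was added. The sequences are windows from 250 bases before to 50 bases after a transcript start in RefSeq on GRCm38.p6. Capitals mark matches on either strand to 5 short motifs. The E-box of basic helix-loop-helix factors was searched as CACGTG. The core shared by hypoxia response elements, which also lies within each E-box, was searched as ACGTG. The GC box of Sp1 was GGGCGG in this search. The core of TCF/LEF sites, which answer to Wnt signals, was CTTTGA here, and the TATA box was taken as TATAAA in its strict form. Slc2a1 is on chr4:119108495-119108794, plus strand, Mfsd2a on chr4:122961139-122961438, minus strand, Slco1c1 on chr6:141524104-141524403, plus strand, and Tfrc on chr16:32608872-32609171, plus strand, the second of its 2 windows.
Slc2a1: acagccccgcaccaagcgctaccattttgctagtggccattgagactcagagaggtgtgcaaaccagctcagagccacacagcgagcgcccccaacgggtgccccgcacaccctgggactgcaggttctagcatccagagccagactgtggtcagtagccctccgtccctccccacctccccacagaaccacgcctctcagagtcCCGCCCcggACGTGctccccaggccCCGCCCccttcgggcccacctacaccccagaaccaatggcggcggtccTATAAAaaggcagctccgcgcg
Mfsd2a: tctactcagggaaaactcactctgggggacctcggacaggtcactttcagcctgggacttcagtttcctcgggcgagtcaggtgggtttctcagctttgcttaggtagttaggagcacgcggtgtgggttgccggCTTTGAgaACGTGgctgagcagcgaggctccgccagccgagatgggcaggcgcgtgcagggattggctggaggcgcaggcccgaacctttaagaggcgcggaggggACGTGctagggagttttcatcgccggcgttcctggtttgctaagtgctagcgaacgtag
Slco1c1: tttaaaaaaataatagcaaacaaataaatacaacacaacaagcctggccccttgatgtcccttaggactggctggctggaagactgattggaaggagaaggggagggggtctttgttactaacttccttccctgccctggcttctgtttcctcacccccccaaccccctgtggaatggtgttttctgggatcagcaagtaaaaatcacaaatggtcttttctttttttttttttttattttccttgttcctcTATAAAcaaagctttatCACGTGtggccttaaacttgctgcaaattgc
Tfrc: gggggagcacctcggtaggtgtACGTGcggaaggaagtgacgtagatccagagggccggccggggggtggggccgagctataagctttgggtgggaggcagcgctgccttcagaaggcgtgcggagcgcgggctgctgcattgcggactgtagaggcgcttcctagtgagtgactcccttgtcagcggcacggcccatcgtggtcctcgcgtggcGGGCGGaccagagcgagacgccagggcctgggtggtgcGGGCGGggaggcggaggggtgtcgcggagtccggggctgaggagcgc

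The Slc2a1 window held 1 ACGTG, 2 GC boxes and 1 TATA box, and that of Mfsd2a held 2 ACGTG and 1 TCF/LEF core. In Slco1c1 there were 1 E-box, counted as 2 ACGTG on the 2 strands, and 1 TATA box, and in Tfrc 1 ACGTG and 2 GC boxes. The first Tfrc window, which is not shown, held 1 ACGTG and no GC box. Of the 32851 windows in the RefSeq table, 19.6% contained ACGTG, 35.7% a GC box, 16% a TCF/LEF core, 13.6% a TATA box and 7.15% an E-box. A match describes the letters in the window and was not tested as a binding site. Windows were found for 8 of the 10 members, not for Slc7a5 and Bsg. That of Abcb1a, at chr5:8566841-8567140, lies far before the gene start of 8660077 in GENCODE M21 and is not shown.

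The libraries had from 21391335 to 55453789 counts, and the members had between 278 counts, for Abcg2, and 25355 counts, for Bsg, in a library. All 22 genes of the endothelial identity list were among those tested, and none of them was at 0 throughout. Markers of the choroid plexus epithelium were uneven, with a sum between 16.2 and 477 CPM (counts scaled to a common library size by TMM) over the 16 mice, and 4 libraries had over 100 CPM, namely 1 evacetrapib-treated (B) and 1 vehicle-treated (S3) CETPtg mouse and 2 vehicle-treated APPtg/CETPtg mice (S7 and S8). Markers of blood summed to between 69.9 and 289 CPM. In the vehicle-treated APPtg/CETPtg group, the mouse S6 stood apart from the others, with a chi-square per degree of freedom over all genes, which would be near 1 if only counting error separated 2 libraries, of 12.3 to 20.6 in its pairs against 7.70 to 8.60 in pairs without it. Mouse A of the treated CETPtg group likewise had up to 17.1. The index plate held the genotypes in separate columns and the treatments in separate rows, so that the plate position cannot be told apart from either.

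The members differed widely in level. CPM values were divided by summed exon length, since longer transcripts collect more reads. Bsg, which encodes basigin, the chaperone of monocarboxylate transporters, had 223 ± 19.5 CPM per kb (SD, n = 16). The next levels were 32.3 ± 3.47 CPM per kb for Slc2a1, the glucose transporter GLUT1, and 20.5 ± 2.47 for Slc7a5, the light chain of the large neutral amino acid transporter LAT1. These top levels did not overlap between genes in any of the 16 mice. Tfrc, the transferrin receptor, followed with 14.9 ± 1.66 CPM per kb, and its range met that of Slc7a5 above it and that of Mfsd2a below. Mfsd2a, a carrier of lysophosphatidylcholine with docosahexaenoic acid, had 9.44 ± 1.58 CPM per kb. From Mfsd2a down through Slco1c1 (7.48 ± 0.711), Abcb1a (7.01 ± 0.687), Slc16a1 (5.89 ± 0.803) and Slco1a4 (5.63 ± 0.807), the range of each gene overlapped that of its neighbour, so that their order was not resolved beyond the spread over mice. Abcg2, the efflux pump BCRP, was lowest with 1.79 ± 0.154 CPM per kb and stood apart from all of the others.

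Abcb1b, the second mouse gene for P-glycoprotein, had between 2.30 and 3.96 CPM over the mice, where Abcb1a had between 30.9 and 43.5 CPM. Slc2a3, the neuronal glucose transporter GLUT3, had between 154 and 211 CPM, and Slc3a2, the heavy chain that pairs with LAT1, between 102 and 121 CPM. Reads could be shared between the Abcb1 paralogs, and antisense genes overlap 105 exon bases of Slc2a1 and 553 of Abcb1a. The strand setting of the counting is not given in the sources used here.

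Whether evacetrapib changed barrier transport genes was asked over all mice, with a term for genotype. Among the 4 efflux and organic anion carriers, Abcb1a and Slco1c1 were higher with evacetrapib in both genotypes. Mfsd2a, the lipid carrier, was lower. Of the 10 members, 5 were higher and 5 lower, the median log2 fold change being 0.02. None of them was called, which takes an adjusted p of 0.05 or less in edgeR and a level that differs by 5% or more. Of all 18609 genes tested, 0.0107% were called, and the median log2 fold change of all of these genes was -0.00. By DESeq2 none of the members was called either, and with both tools 4 of them, Bsg, Mfsd2a, Slco1c1 and Abcb1a, had an unadjusted p under 0.05, as 1472 genes had in edgeR. In a second test on each gene alone, 4 of 10 members had an exact two-sided permutation p of at most 0.05, which 8.14% of all genes had.

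Abcb1a (chromosome 5, 8660077 to 8748575, plus strand, GRCm38) encodes the P-glycoprotein pump of brain capillaries. In CETPtg mice it had 41.6, 41.6, 41.2 and 37.7 CPM with evacetrapib and 37.3, 34.5, 34.0 and 43.5 CPM with vehicle. APPtg/CETPtg mice had 39.6, 43.3, 41.8 and 39.5 CPM with evacetrapib and 34.3, 30.9, 35.5 and 37.9 CPM with vehicle. Each of the 4 treated APPtg/CETPtg mice was therefore above each of the 4 vehicle mice, while in CETPtg mice 1 vehicle mouse was higher than all treated ones. The log2 fold change over all mice was 0.18 (SE 0.053, adjusted p = 0.337, edgeR), a level 13.3% higher, and the exact permutation p was 0.00857.

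Slco1c1 (chromosome 6, 141524368 to 141570177, plus strand) encodes OATP1C1, which carries thyroxine into the brain. Treated CETPtg mice had 41.4, 39.0, 44.9 and 35.8 CPM against 33.4, 35.9, 36.4 and 38.9 CPM with vehicle. Treated APPtg/CETPtg mice had 40.1, 39.4, 45.5 and 39.4 CPM against 32.4, 38.4, 36.8 and 42.8 CPM. The groups overlapped in both genotypes, in APPtg/CETPtg mice through 1 vehicle mouse (S8). The log2 fold change over all mice was 0.14 (SE 0.056, adjusted p = 0.548, edgeR), with an exact permutation p of 0.0347 that reached up to 0.0792 when single mice were left out.

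Bsg (chromosome 10, 79704491 to 79711969, plus strand) was also higher, with 424, 404, 370 and 400 CPM in treated and 360, 367, 359 and 392 CPM in vehicle CETPtg mice. In APPtg/CETPtg mice these values were 433, 429, 459 and 452 CPM with evacetrapib and 366, 429, 385 and 455 CPM with vehicle. The ranges overlapped in both genotypes. Its log2 fold change was 0.11 (SE 0.042, adjusted p = 0.501, edgeR; exact permutation p = 0.0196), or 8.18% higher.

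Mfsd2a (chromosome 4, 122946850 to 122961188, minus strand) went the other way. With evacetrapib, CETPtg mice had 19.0, 22.7, 21.5 and 19.2 CPM and APPtg/CETPtg mice 15.2, 21.5, 17.5 and 18.1 CPM. With vehicle, CETPtg mice had 22.8, 21.2, 21.7 and 21.7 CPM and APPtg/CETPtg mice 22.3, 31.2, 24.9 and 19.4 CPM. The lowest level was in a treated and the highest in a vehicle APPtg/CETPtg mouse, and the groups overlapped in both genotypes. The log2 fold change over all mice was -0.25 (SE 0.089, adjusted p = 0.485, edgeR), with an exact permutation p of 0.0163.

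The other 6 members lay closer to 0. Slc16a1, the lactate and ketone body transporter MCT1, had a log2 fold change of 0.07 (SE 0.088), and Slco1a4, which takes up organic anions, one of 0.05 (SE 0.077). Abcg2, at -0.01 (SE 0.058), changed sign when single mice were left out. Tfrc, Slc2a1 and Slc7a5 were at -0.04 (SE 0.044), -0.06 (SE 0.066) and -0.08 (SE 0.068), and the exact permutation p of these 6 genes lay between 0.311 and 0.860. Their 95% confidence intervals bound the difference, which for Slc2a1 ran from -0.20 to 0.07 and for Tfrc from -0.13 to 0.05 on the log2 scale. No member had treated and vehicle mice that did not overlap over all 16 mice, as 0.0537% of all genes did. Without the 4 libraries with much choroid plexus RNA, 4 members had an exact permutation p of at most 0.05 over 12 mice. The lowest was 0.00667 for Mfsd2a, with a difference of -0.35 in log2 CPM. Only S5 and S6 were then left of the vehicle-treated APPtg/CETPtg mice, and S6 had the highest Mfsd2a level of all, so it weighed more. The share of all genes at such a p in these mice was not determined.

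**Figure D1:**
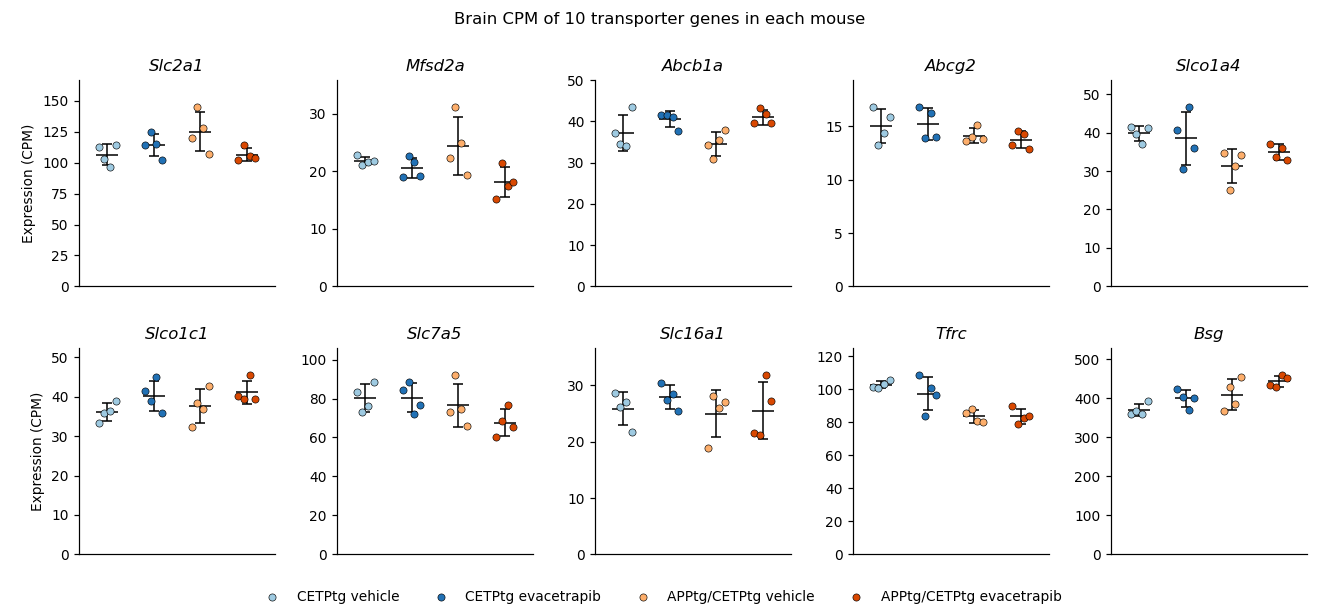
Expression of the 10 transporter genes in CPM (vertical axes, from 0), with 1 point per mouse and a bar for mean and SD of the 4 mice in each of the 4 groups. Abcb1a lies above vehicle in all 4 treated APPtg/CETPtg mice, and Mfsd2a and Slc2a1 reach their highest values, 31.2 and 145 CPM, in the same vehicle-treated APPtg/CETPtg mouse.

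Within genotypes, the question was whether the response differs when the APP transgene is present. In CETPtg mice none of the members was called, against 0% of all genes, and none had groups that did not overlap, against 3.92% of all genes. None of the members had an unadjusted p under 0.05 there by edgeR or DESeq2, which 1079 and 1000 genes had, and DESeq2 called 0 genes too. The log2 fold changes of the members ran from -0.08 to 0.16. In APPtg/CETPtg mice, again none was called by edgeR, against 0.043% of all genes, or by DESeq2, and 3 members, Slc2a1, Mfsd2a and Abcb1a, had an unadjusted p under 0.05 in both, which 1677 genes had in edgeR and 1524 in DESeq2. The log2 fold changes spread from -0.43 to 0.24. Abcb1a was the only member whose groups did not overlap there, which 4.29% of all genes showed, so that 1 gene in 10 is close to what the whole table holds.

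Slc2a1 (chromosome 4, 119108711 to 119137983, plus strand) had opposite signs in the genotypes. Evacetrapib-treated CETPtg mice had 114, 124, 115 and 102 CPM, and vehicle mice 113, 103, 96.6 and 114 CPM. Evacetrapib-treated APPtg/CETPtg mice had 102, 114, 106 and 104 CPM, and vehicle mice 120, 145, 128 and 107 CPM. Vehicle-treated APPtg/CETPtg mice held the 2 highest values, 145 and 128 CPM, and their lowest mouse (S8) lay among the treated ones.

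The log2 fold change of Slc2a1 was 0.10 (SE 0.078, adjusted p = 0.879) in CETPtg and -0.23 (SE 0.079, adjusted p = 0.378) in APPtg/CETPtg mice by edgeR. The difference between these effects was -0.33 (SE 0.111, 95% confidence interval -0.56 to -0.10, adjusted p = 0.703, edgeR). By permutation of treatment within genotypes Slc2a1 had a p of 0.0204, which is exact only if treatment had no effect in either genotype. It was the only one of 10 members at or below 0.05 in that test, which 6.28% of all genes were, and in the adjusted test 0 genes were called (0%), with 1271 at an unadjusted p under 0.05 in edgeR and 2 genes, no member among them, called by DESeq2. Without the vehicle-treated APPtg/CETPtg mouse S6, which had 145 CPM, the log2 fold change of Slc2a1 in APPtg/CETPtg mice was -0.15 and the difference between the effects -0.25 (adjusted p = 0.504, edgeR).

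Mfsd2a had a log2 fold change of -0.08 (SE 0.113, adjusted p = 0.933) in CETPtg and of -0.43 (SE 0.118, adjusted p = 0.266) in APPtg/CETPtg mice by edgeR, the latter a level 25.5% lower. The difference between the genotypes was -0.34 (SE 0.163, adjusted p = 0.725, edgeR; permutation p = 0.176, with the same limit), so the 2 effects were not shown to differ. Its unadjusted p was 0.0509 in edgeR. In DESeq2 both Mfsd2a and Slc2a1 had an unadjusted p under 0.05 for this difference, as 1188 genes had. Mouse S6 was the highest for this gene too, with 31.2 CPM, and without it the log2 fold change in APPtg/CETPtg mice was -0.28. S6 held the highest level of all 16 mice for Slc2a1, Mfsd2a, Slc7a5 (92.0 CPM) and Slc2a3 (211 CPM, the next mouse having 172), and the lowest for Abcb1a and Slco1a4. Its markers of choroid plexus (22.1 CPM) and of blood (97.0 CPM) were within the range of the other mice, and what sets this library apart was not tested. When genes with few counts were kept in the test, Mfsd2a was called in APPtg/CETPtg mice (adjusted p = 0.0236, edgeR), as 1 of 88 genes.

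Abcb1a had log2 fold changes of 0.12 (SE 0.073) in CETPtg and 0.24 (SE 0.075, adjusted p = 0.331, edgeR) in APPtg/CETPtg mice. In APPtg/CETPtg mice its exact permutation p was 0.0286, which is the smallest that 70 labelings of 4 against 4 mice can give. Slco1c1 stood at 0.12 (SE 0.081, adjusted p = 0.691, edgeR) in the same mice.

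**Figure D2:**
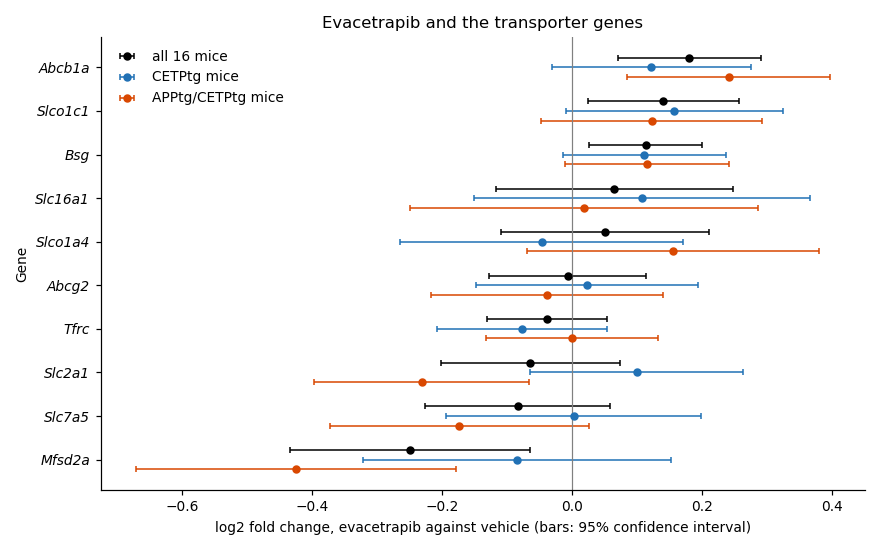
Log2 fold change of each transporter gene between evacetrapib and vehicle (horizontal axis), over all 16 mice and in the 8 mice of each genotype, with 95% confidence intervals. Abcb1a, Slco1c1 and Bsg lie above 0 and Mfsd2a below 0 in all 3 comparisons, and Slc2a1 lies on opposite sides of 0 in the 2 genotypes.

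Beside these values stood a difference in vascular genes. All 22 genes of the endothelial identity list, which code for junction proteins, receptors and transcription factors of endothelial cells, were higher with evacetrapib over all mice. Their median log2 fold change was 0.23. None was called by edgeR, although 16 had an unadjusted p under 0.05, whereas DESeq2 called 5, namely Pecam1, Podxl, Flt1, Cdh5 and Kdr. The list includes Pecam1, Cdh5, Kdr, Flt1 and Podxl, the same genes that the study itself singled out in these samples, and is therefore not independent evidence of its direction. Flt1, a receptor for vascular endothelial growth factor, had a log2 fold change of 0.30 (SE 0.059, adjusted p = 0.134, edgeR) and Pecam1, an adhesion molecule of endothelial junctions, one of 0.31 (SE 0.066, adjusted p = 0.169, edgeR). The summed level of the list lay between 471 and 543 CPM in treated and between 415 and 492 CPM in vehicle CETPtg mice. In APPtg/CETPtg mice it lay between 481 and 553 CPM with evacetrapib and between 381 and 477 CPM with vehicle. The transporter members, most of which are used by other brain cells too, had a median of 0.02. That of the endothelial identity genes was 0.23, and no test compared the lists.

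To describe the members against the endothelial genes, the mean log2 CPM of the 22 genes was subtracted from that of each member in each mouse. This mean was 0.23 higher with evacetrapib. Relative to it, all 10 members were lower, and 6 were lower with an exact permutation p of at most 0.05, but 61.8% of all genes tested were lower by the same rule, so this count does not set the members apart from other genes. Mfsd2a was lowest, with a difference of -0.49 (exact permutation p = 0.00286), followed by Slc7a5 with -0.32 (exact permutation p = 0.00408) and Slc2a1 with -0.30 (exact permutation p = 0.0131). Abcb1a and Slco1c1 stayed closest to the endothelial mean, with differences of -0.05 (exact permutation p = 0.331) and -0.09 (exact permutation p = 0.0510). The subtracted mean includes genes that the study singled out in these mice. Without these genes the differences were -0.46 for Mfsd2a, -0.29 for Slc7a5 and -0.27 for Slc2a1. Those of Abcb1a and Slco1c1 were then -0.02 and -0.06 (exact permutation p = 0.669 and 0.162). How much of each member's RNA came from endothelial cells was not tested.

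Pericytes, the contractile cells around capillaries, had 12 of 12 markers higher over all mice (median 0.15), of which edgeR called none (5 at an unadjusted p under 0.05) and DESeq2 called Rgs5. Of the 8 smooth muscle markers, 7 were higher (median 0.33) and 1 was called, Myh11, a smooth muscle myosin (log2 fold change 0.56, SE 0.080, adjusted p = 0.0193, edgeR). DESeq2 called 3 of them, adding Tagln and Acta2, among 59 genes in all. Myh11, Tagln and Acta2 are also genes that the study reported from these same mice, so their calls are not independent evidence. The 10 astrocyte and 10 neuronal markers had medians of 0.02 and -0.01. The 11 choroid plexus markers were all lower, with a median of -0.51 and none called by edgeR or DESeq2 (3 at an unadjusted p under 0.05 in each). Without the 4 libraries named above this direction turned, 7 of the 9 markers then tested being higher with a median of 0.39. Those libraries were picked by their sums of these same markers and most were vehicle-treated, so the turn is no independent evidence of a direction. In CETPtg mice alone 4 of 11 were higher (median -0.10).

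Of 18 other carriers of the brain endothelium, 13 were higher and 5 lower over all mice, and their median log2 fold change was 0.09. None was called by edgeR or DESeq2, and 1 had an unadjusted p under 0.05 in each. In CETPtg mice their median was 0.03, where that of the members was 0.06, and no test compared the lists. The smallest p values belonged to Abcc4, an efflux pump for organic anions (0.14, SE 0.059, adjusted p = 0.597, edgeR), and Slc29a1, the nucleoside transporter ENT1 (-0.10, SE 0.049, adjusted p = 0.656, edgeR). Paralogs and partners of the members had a median of -0.00, with Slc3a2 at -0.05 and Slco2b1, an organic anion carrier, at 0.08. Receptors that carry ligands across by transcytosis had a median of 0.03, and the highest among those named by rule was Igf1r, the receptor for insulin-like growth factor 1, at 0.12 (adjusted p = 0.528, edgeR).

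The Wnt genes of the barrier, 9 of 15 higher with a median of 0.03, included the feedback target Axin2 at 0.11 (SE 0.044) and the co-receptor Lrp5 at 0.14 (SE 0.060), neither of them called. The caveolar and fenestral genes, which mark vesicular passage, had a median of 0.06 and were led by Cavin1 at 0.17 (SE 0.068). In the iron list, 6 genes were higher and 6 lower, with Heph, an iron oxidase, at -0.25 (SE 0.092) and Cp, the oxidase ceruloplasmin, at 0.17 (SE 0.083). None of the genes of these 3 lists was called over all mice by edgeR or DESeq2, and in edgeR 3, 1 and 1 had an unadjusted p under 0.05.

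**Figure D3:**
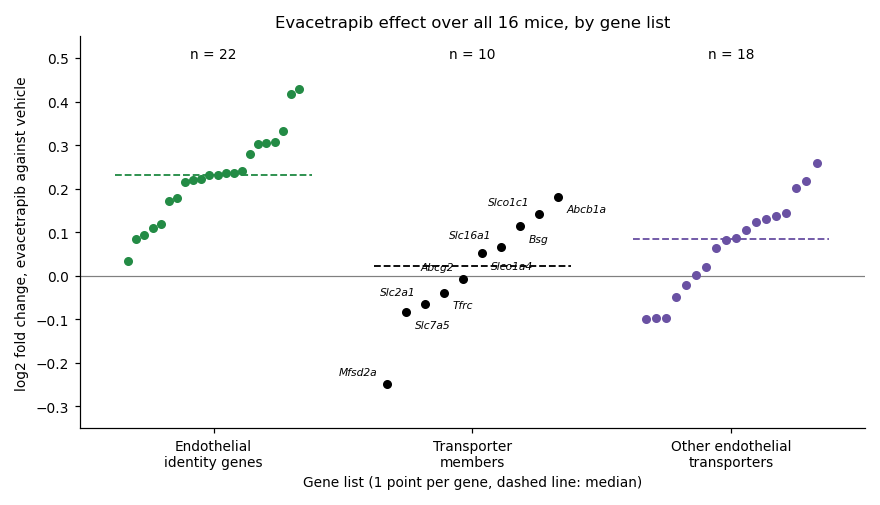
Log2 fold change between evacetrapib and vehicle over all 16 mice (vertical axis), with 1 point per gene and a dashed line at the median, for 22 endothelial identity genes, the 10 transporter members and 18 other endothelial transporters. The medians are 0.23, 0.02 and 0.09, and the identity genes are all above 0.

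The comparison of genotypes asked which genes differ when the APP transgene is present. It called 3 of the 10 members, Tfrc and Slco1a4 lower and Bsg higher in APPtg/CETPtg mice, while 17.7% of all genes tested were called. No member had genotypes that did not overlap, as 3.03% of all genes did.

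Tfrc (chromosome 16, 32608920 to 32632794, plus strand), which takes up iron-loaded transferrin and is used to ferry antibodies into the brain, was lower. CETPtg mice had 109, 84.0, 101 and 96.5 CPM with evacetrapib and 102, 101, 103 and 106 CPM with vehicle. APPtg/CETPtg mice had 89.7, 78.8, 82.4 and 83.8 CPM with evacetrapib and 85.6, 88.3, 80.5 and 80.5 CPM with vehicle. Of the CETPtg mice 1 lay within the range of the APPtg/CETPtg mice, mouse B with 84.0 CPM, which was also 1 of the 4 with much choroid plexus RNA. The log2 fold change was -0.26 (SE 0.044, adjusted p = 0.000639, edgeR), a level that fell by 16.4%, and the exact permutation p was 0.000816. Without those 4 libraries it was -0.27 (adjusted p = 0.00147, edgeR).

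Slco1a4 (chromosome 6, 141805440 to 141856199, minus strand), the carrier OATP1A4, had 40.7, 30.5, 46.7 and 36.0 CPM with evacetrapib and 41.4, 39.6, 37.1 and 41.1 CPM with vehicle in CETPtg mice. APPtg/CETPtg mice had 37.1, 33.7, 36.0 and 32.8 CPM with evacetrapib and 34.6, 25.0, 31.2 and 34.2 CPM with vehicle. The genotypes did not overlap among vehicle-treated mice, but did among treated ones, and the same was true of Tfrc. The share of all genes without overlap among vehicle-treated mice was not determined. Its log2 fold change was -0.24 (SE 0.077, adjusted p = 0.0335, edgeR), and the call was lost in 8 of the 16 fits that left out 1 mouse, with adjusted p up to 0.0752 without the treated CETPtg mouse C.

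Bsg was higher in APPtg/CETPtg mice, with a log2 fold change of 0.15 (SE 0.042, adjusted p = 0.0181, edgeR), and was not called without the 4 libraries with much choroid plexus RNA (0.13, adjusted p = 0.0859, edgeR). Slc7a5 (chromosome 8, 121881150 to 121907694, minus strand) was not called, with a log2 fold change of -0.16 (SE 0.068, adjusted p = 0.116, edgeR), but was called without the vehicle-treated APPtg/CETPtg mouse S6 (-0.22, adjusted p = 0.0141, edgeR). Its values were 60.0, 68.5, 76.8 and 65.2 CPM in treated and 73.2, 92.0, 74.6 and 65.9 CPM in vehicle APPtg/CETPtg mice. In CETPtg mice they were 84.5, 88.4, 72.0 and 76.4 CPM with evacetrapib and 83.2, 73.0, 76.1 and 88.6 CPM with vehicle, so that the genotypes overlapped. Abcg2 (chromosome 6, 58584523 to 58695676, plus strand) had a log2 fold change of -0.12 (SE 0.058, adjusted p = 0.168, edgeR). The other 5 members lay between -0.09 and 0.07, among them Slc16a1 (chromosome 3, 104638668 to 104658462, plus strand).

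The genotype differences moved with properties of the transcripts. Across the 18583 genes with both values, the log2 fold change between genotypes was lower for genes with longer exons (Spearman's rho = -0.32) and higher for those with more GC (rho = 0.38). The genes share their libraries and are not independent replicates. Length had a rho of 0.02 with the evacetrapib effect. Bsg had the shortest exons of the members, 1814 bases, and the longest 3 belonged to Abcg2, Slco1a4 and Tfrc with 8153, 6414 and 6185 bases. After removal of each mouse's trend with length and GC content, 1614 genes were called, 1076 of them higher, where TMM scaling gave 3299, with 1740 higher. Tfrc was then at -0.13 (adjusted p = 0.0272, edgeR) and was the only member called, while Slco1a4 was at -0.12 (adjusted p = 0.295, edgeR) and Bsg at 0.06 (adjusted p = 0.412, edgeR). Abcg2 changed sign to 0.04. Other members moved away from 0, Slc7a5 to -0.21 (adjusted p = 0.0583, edgeR), the largest change among the members in that fit, Slco1c1 to 0.12 and Mfsd2a to -0.07. Whether the trend is technical was not tested.

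**Figure D4:**
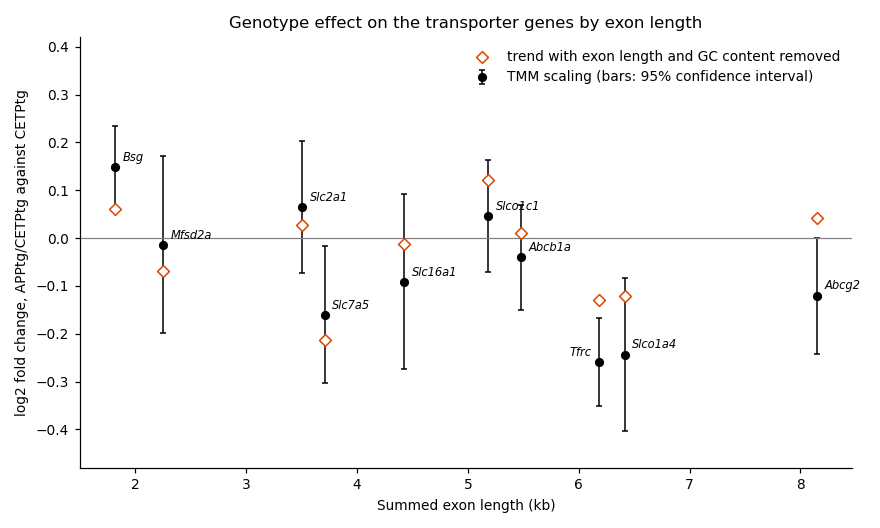
Log2 fold change of each member between APPtg/CETPtg and CETPtg mice (vertical axis) against its summed exon length in kb (horizontal axis). Black points with 95% confidence intervals are from TMM scaling and open diamonds from the fit without the trend, which lie nearer to 0 for Bsg, Tfrc and Slco1a4 (0.06, -0.13 and -0.12) and farther from 0 for Slc7a5, Slco1c1 and Mfsd2a (-0.21, 0.12 and -0.07).

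Related genes gave the setting of these calls. Among other endothelial carriers, 2 of 18 were called, against 17.7% of all genes. Both were lower in APPtg/CETPtg mice, namely the taurine transporter Slc6a6 (-0.20, adjusted p = 0.00117, edgeR) and the organic anion transporter Slc22a8 (-0.21, adjusted p = 0.0436, edgeR). The receptors for insulin and insulin-like growth factor 1, Insr and Igf1r, were lower, with log2 fold changes of -0.19 and -0.30 (adjusted p = 0.000685 and 0.000322, edgeR). In the iron list, the light ferritin chain Ftl1 was higher (0.17, adjusted p = 0.00433, edgeR) and Ireb2, whose protein binds transferrin receptor mRNA, was lower (-0.19, adjusted p = 0.00733, edgeR), while the other 10 genes were not called. A link of these genes to the level of Tfrc was not tested. Slc16a7, the monocarboxylate transporter MCT2 of neurons, was lower (-0.18, adjusted p = 0.0144, edgeR). Among the Wnt genes, Lrp6 was lower and Wnt7b higher, and of the caveolar genes Cav2 was lower. After removal of the trend with length and GC content, Slc6a6, Slc22a8 and Igf1r were still called, but Insr and all genes of the iron, paralog, Wnt and caveolar lists were not, so that the calls of Ftl1, Ireb2, Slc16a7, Lrp6, Wnt7b and Cav2 were lost. The median of the iron list turned from -0.08 to 0.02.

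Markers of other cells were also among the genes called for genotype, which made up 17.7% of all genes tested. Of 10 oligodendrocyte markers, 6 were called, all lower (median -0.24), and of 10 microglial markers 5 were called, all higher, with a median of 0.17. Among astrocyte markers, 1 was called higher and 3 lower. Among the 22 endothelial identity genes 2 were called higher (Egfl7 and Ly6a) and 1 lower (Ptprb), with a median of -0.05. This share of endothelial genes was below that of all genes. With the trend removed, 1614 of all 18609 genes were called. Of the markers, 3 oligodendrocyte and 3 microglial ones were then called, in the same directions, and 2 astrocyte markers were called lower and none higher. Of the endothelial genes Egfl7 and Ly6a were called but Ptprb was not. The 5 blood markers had a median of -0.19, with none called, which bears on Tfrc since young red cells carry transferrin receptors. The part of these cells in the difference of Tfrc was not tested.

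The members did not vary as a block. Over the 16 mice the highest Pearson correlation of log2 CPM between members was 0.79, for Slc2a1 and Mfsd2a, and the lowest was -0.56, for Slc2a1 and Slco1a4. Mouse S6 was the highest of all for Slc2a1 and Mfsd2a and the lowest for Slco1a4. By rank these 2 pairs had a Spearman's rho of 0.68 and -0.38. The highest rho was then 0.76, for Tfrc and Slco1a4, and the lowest -0.58, for Bsg and Mfsd2a. These values come from the same libraries and include the group differences described above. Of all genes tested, the most similar to Slc2a1 was Myrip (r = 0.86), and the most similar to Mfsd2a was Plin4 (r = 0.89), which encodes a lipid droplet protein and had a log2 fold change with evacetrapib of -1.10 (adjusted p = 0.302, edgeR). Tfrc was closest to Psme4 (r = 0.95), Slco1a4 to Atr (r = 0.92), Slc7a5 to AA414768 (r = 0.92) and Bsg to Lmcd1 (r = 0.90). For Abcb1a it was 9330102E08Rik (r = 0.88), for Abcg2 Frmpd4 (r = 0.86), for Slco1c1 Ccpg1os (r = 0.85) and for Slc16a1 Mall (r = 0.81), each over 16 mice. Mall and Ccpg1os had low mean levels, 0.55 and 3.47 CPM. Each r was picked as the highest among the 18609 genes tested, so high values follow in part from the choice. Whether any of these genes is regulated together with its member was not tested.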

How the data were processed

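Brain RNA of 16 female mice was compared, 4 in each of 4 groups. The authors enriched poly(A) RNA, made directional libraries, trimmed reads with Trimmomatic 0.39, aligned them with STAR 2.7.8a to mm10 and counted them with HTSeq. The deposited table holds these unnormalized counts for each gene and mouse. The annotation and strand setting of the counting are not given in the sources used here, and the number of sample columns without a label was 0. The human transgenes were not analysed here. Gene positions and exon lengths are from GENCODE M21 (GRCm38).

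Of the genes, 18609 reached 10 counts in 4 or more mice. Their counts were scaled by TMM and tested in R 4.3.3 by edgeR 4.0.16, using its quasi-likelihood F-test (two-sided in effect), and p-values were adjusted over all of them after Benjamini and Hochberg. Evacetrapib and vehicle were compared with a genotype term and, in a model of 4 group means, within genotypes, where the difference of the effects was tested too. Genotypes were compared with a treatment term. Called genes had an adjusted p of 0.05 or less and, except for the difference of effects, a fold change of 5% or more, the study's thresholds. Single genes were also tested by exact two-sided permutation of treatment labels within genotypes (of genotype labels within treatments) on log2 CPM with a prior count of 2. With 4900 labelings over all mice, no p can be below 0.000408. The edgeR p-values rest on the spread between mice within groups, estimated over all 16 mice together. The permutation p-values give the share of labelings with a difference at least as large. For the difference of the effects they are exact only if treatment had no effect in either genotype.

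Named besides the members are Abcb1b, Slc2a3, Slc3a2, of each list the genes called and the 2 with the smallest p in the evacetrapib comparison over all mice, and for each member the gene with the highest Pearson correlation. Of the lists of microglia, fibroblast, blood and other cell markers some are given by counts only, and a result of the lists is not reported here. The members and lists were chosen with earlier results of these data known. Alternatives were DESeq2 1.42.0, its size factors, other filters and thresholds, no second term, the mice of 1 genotype only, a prior count of 0.5, the endothelial list without the genes the study reported, and each mouse left out. A block on the numbers in the column heads, removal of trends with exon length and GC content (lowess on each mouse's deviations) and leaving out the 4 libraries with the highest choroid plexus sums were added after seeing the data. The edgeR steps and the permutation test were tested on simulated data.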

Additional observations from a re-analysis of the deposited data

Results flagged for a closer look

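Abcb1a had 37.7 CPM in the evacetrapib-treated CETPtg mouse D, where the other 3 mice of its group lay between 41.2 and 41.6 CPM, a gap wide enough for this mouse to stand apart by Dixon's test. Without it, the difference of Abcb1a between evacetrapib and vehicle over all mice was 0.20 on the log2 scale (exact permutation p = 0.00776), and with it 0.19. Mouse D was the lowest treated CETPtg mouse, so leaving it out had to raise the difference and adds no support.

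Slco1c1 had 45.5 CPM in the evacetrapib-treated APPtg/CETPtg mouse G, where the other 3 mice lay between 39.4 and 40.1 CPM. Of the 40 groups of members and treatments examined 2 stood out in this way, and chance flags about 1 in 20 groups, which would be as many.

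The effect of evacetrapib on Slc2a1 differed between the genotypes by -0.32 in log2 CPM (p = 0.0204 by permutation of treatment labels within genotypes). This p is exact only if treatment had no effect in either genotype. The difference did not pass the adjusted test over all genes.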

How the results depend on the processing

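In 16 fits that each left out 1 mouse, no member was called for evacetrapib, and between 2 and 4 members were called for genotype. The number of all genes called for evacetrapib then lay between 0 and 8 over all mice, between 0 and 14 in APPtg/CETPtg mice and between 0 and 1 for the difference of the effects. The log2 fold change of Abcg2 with evacetrapib over all mice moved between -0.035 and 0.021 in these fits and was 0.023 without the 4 libraries with the highest choroid plexus sums.

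With the Wald test of DESeq2, 59 genes were called over all mice, 73 in APPtg/CETPtg mice and 2 for the difference of the effects. With no filter on low counts the numbers were 35, 88 and 29, with 9 in CETPtg mice and 1 member, Mfsd2a, in APPtg/CETPtg mice. Without a genotype term 1 gene was called over all mice, in a fit to the 8 APPtg/CETPtg mice 2 were called there, and without the 4 libraries 0 and 19 were called. With 1614 genes called for genotype after removal of the trends, 1 member was called, and the log2 fold change of Abcg2 between genotypes was 0.043 in place of -0.12. Bsg was not called for genotype without the 4 libraries (0.13, adjusted p = 0.0859, edgeR). The causes were not tested.

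Libraries of the same number in the column heads did not deviate together, with correlations between -0.14 and 0.05. A replicate block on these numbers gave 5 genes called in APPtg/CETPtg mice and changed no call of a member named in the text. At the members' smallest count, 278 for Abcg2, counting error is not small against the spread between mice.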
